A study of Homo sapiens with 15 samples.

Results

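Trimethylation of histone H3 at lysine 4 (H3K4me3) marks the start sites of active and poised genes, and most of its peaks span the nucleosomes around 1 promoter. At a minority of genes the mark spreads over several kilobases, mostly into the transcribed region. Such broad domains are known from many cell types, where they often lie at genes tied to the identity of the cell and at tumour suppressor genes, and they are often accompanied by acetylation of lysine 27 (H3K27ac), which marks promoters and enhancers in use. Here a domain is a peak of 4 kb or more in the count table of H3K4me3 peaks, and 1403 of 22572 peaks (6.22%) met that rule. The peaks had been called on reads merged over all lines, so each domain has 1 length, and lengths per line were not analysed here.

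The study profiled MDA-MB-231, a claudin-low human breast cancer cell line (Par), and sub-populations of it selected in mice for metastasis: LM2, which colonizes the lung, and BrM2, which colonizes the brain. All 3 lines were untreated, were grown for 3 days with 10% serum and carried no introduced allele named in the labels. ChIP-seq libraries of H3K4me3 and H3K27ac were made from 2 biological replicates per line and mark (12 libraries), and each metastatic line is a single selected sub-population. Counts in H3K4me3 peaks summed to between 3489607 and 9839629 per library, and counts in H3K27ac peaks to between 1994996 and 6450028. The 3 input samples were not used here.

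The domains were first described by what they cover. Their median length was 4873 bp and the longest spanned 25343 bp. Most were close to the limit, with 765 of 4 to 5 kb and 35 of 10 kb or more. They made up 18.5% of all bases in peaks. The 5′ end of at least 1 protein-coding gene record lay in 1129 domains (80.5%), compared with 76.7% of the 7197 peaks of 2 to 4 kb and 25.6% of the 13972 shorter peaks. In all, the domains held the starts of 1429 protein-coding genes, which is 7.09% of the 20149 gene names in the annotation. A domain held starts of 2 or more genes in 269 cases, and in 229 of these the genes lay on both strands. When the start of any protein-coding transcript was counted, 1330 domains held one, and of the remaining 73 domains 46 held the start of a noncoding gene.

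The long peaks extended mainly into the gene. Among the 860 domains with a single gene start, the median extent was 1261 bp upstream and 3628 bp downstream, and the downstream part was the longer one in 90.3%. Peaks of 2 to 4 kb reached a median of 819 bp upstream and 1777 bp downstream, with the downstream part longer in 89.8%. The ratio of observed to expected CpGs had a median of 0.637 in domains, 0.672 in peaks of 2 to 4 kb and 0.549 in shorter peaks. H3K27ac peaks overlapped 1400 of the 1403 domains and covered 628 of them completely. Per kilobase, domains carried as much H3K4me3 as peaks of 2 to 4 kb, with median normalized counts of 160 and 161 per kb, against 25.7 per kb in shorter peaks.

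**Figure D1:**
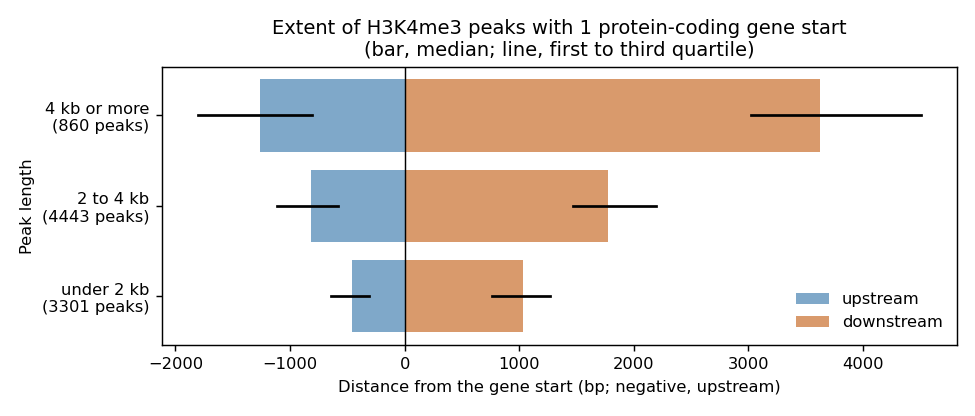
Distance covered upstream (left) and downstream (right) of the gene start, in bp, by H3K4me3 peaks with 1 protein-coding gene start, for 3 length classes. Bars are medians and black lines run from the first to the third quartile; in domains the median was 1261 bp upstream and 3628 bp downstream.

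Values changed little at the limit of the rule. EPHA4, an ephrin receptor gene, and RAPGEF2, a gene for an activator of Rap GTPases, lay in peaks of 4000 and 4001 bp, just inside it. GSK3A, a kinase gene, and ANXA2R, a gene for a receptor of annexin, lay in peaks of 3998 and 3997 bp, just outside. Of the 274 peaks from 3800 bp up to the limit 80.7% held a gene start, and of the 232 peaks from the limit to 4199 bp 81.9% did.

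The longest domain of all spanned transcript starts of PLEC, which encodes the linker protein plectin, on chromosome 8. A domain of 23401 bp on chromosome 22 held starts of noncoding genes (LINC02939 among them) and no protein-coding start. NR2F2, an orphan nuclear receptor, lay in a domain of 17469 bp. A domain of 16746 bp held FIBP, CCDC85B and FOSL1, the last a subunit of the transcription factor AP-1. EPHA2, another ephrin receptor, lay in 16232 bp, LAMA5, a laminin chain of the basement membrane, in 15402 bp, and DUSP4, a phosphatase of MAP kinases, in 14486 bp. The remaining 3 of the 10 longest spanned transcript starts of LMNA (lamin A/C, 13711 bp), those of APOLD1 and the cell cycle inhibitor CDKN1B (13662 bp), and MIR222HG, the host gene of miR-221 and miR-222 (13457 bp).

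Of these 10, the MIR222HG domain was the only one called changed, and it fell in BrM2. Its normalized H3K4me3 counts were 1067 and 1029.6 (Par), 761 and 709 (LM2) and 353 and 372 (BrM2). The groups did not overlap. The log2 fold change was −1.53 ± 0.30 (SE) in BrM2 against Par (adjusted p = 3.94e-05) and −1.02 ± 0.30 in BrM2 against LM2 (adjusted p = 0.0247). An H3K27ac value given for a domain is that of the H3K27ac peak sharing most bases with it, which can be longer or shorter than the domain. Here that peak (chrX:45593008-45640101) was longer. Its H3K27ac was also lower in BrM2, by −1.10 ± 0.23 on the log2 scale against Par (adjusted p = 0.000235). The call against LM2 was lost in edgeR (adjusted p = 0.110) and when any 1 of the 6 libraries was left out (up to 0.375). Under the fit with the replicate block other domains of the 10 passed as well, for example NR2F2 in LM2 against Par (0.61 ± 0.29 without the block, adjusted p = 0.498 without it and 3.37e-12 with it).

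Gene lists were then placed on the domains to see which kinds of genes they cover. The lists were chosen with earlier results of these data known, so their shares are descriptions. Immediate early and AP-1 genes, which respond rapidly to growth signals, had the highest share: 17 of 25 (68.0%) had their start in a domain, among them FOSL1, KLF6, DUSP6 and FOSL2. Mesenchymal and basal genes that mark MDA-MB-231 followed with 12 of 24, including HMGA1, AXL, NRP1, VIM and CD44. The list of writers and erasers of H3K4 methylation had 6 of 16 (37.5%). It also holds KDM6A, which is among the 6 but encodes a demethylase of H3K27, and the others in domains were writers. Tumour suppressor genes had 9 of 31 (29.0%), cytosolic ribosomal protein genes 21 of 86 (24.4%) and developmental transcription factors 13 of 56 (23.2%). Luminal epithelial genes, markers of another breast cancer type, had 4 of 19, and known lung and brain metastasis genes 3 of 22 (FSCN1, COL13A1 and HBEGF). No start of the 39 HOX genes, 8 leukocyte genes, 5 endothelial genes or 6 neural genes lay in a domain. Counting any transcript start raised the mesenchymal count to 17 and the tumour suppressor count to 13.

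**Figure D2:**
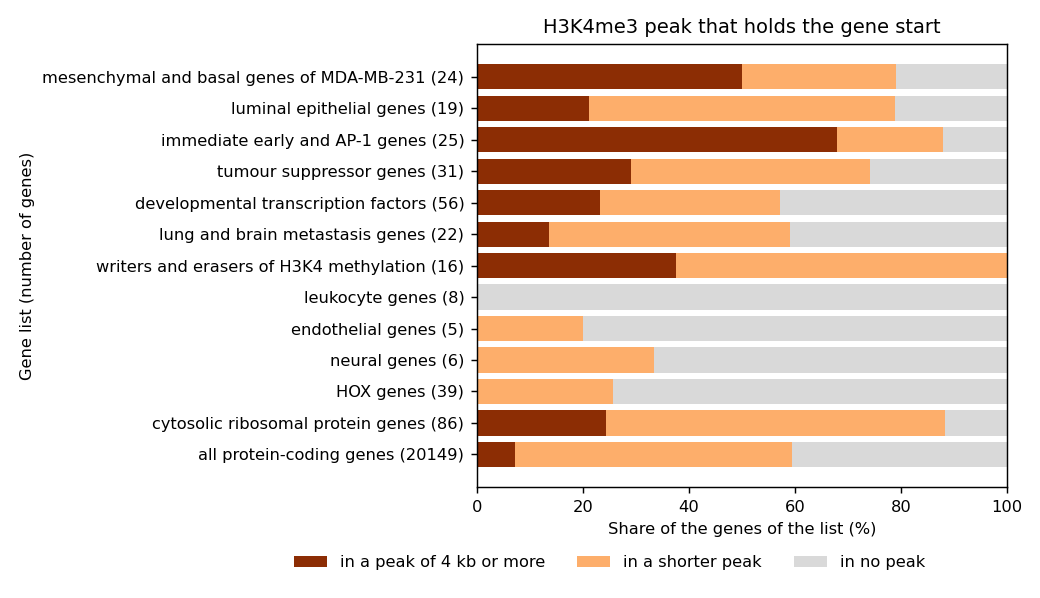
Share of the genes of each list (%) whose gene start lay in a peak of 4 kb or more, in a shorter H3K4me3 peak or in no peak, with the number of genes in parentheses. Immediate early and AP-1 genes (68.0%, 17 of 25) and mesenchymal and basal genes (12 of 24) had the highest shares in domains, against 7.09% of all protein-coding genes.

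Most of these list genes were not called in the fit without a block, which with 2 replicates per line does not show that they were unchanged. FOSL1, for example, had 3340.0 and 2483 normalized counts (Par), 3193 and 2188 (LM2) and 3111 and 2364 (BrM2), with all groups overlapping. HMGA1, a chromatin protein gene, had 1846 and 1354 (Par), 1639 and 1199.6 (LM2) and 2006 and 1560.4 (BrM2). None of the 12 domains of mesenchymal genes and none of the 17 of immediate early genes were called in any of the 3 comparisons by DESeq2 without the block, and with it 2 to 5 and 7 to 9 of them were called per comparison. CAV1 had 1099 and 1071 (Par), 570 and 720.5 (LM2) and 610 and 686 (BrM2). Both metastatic lines lay below Par (−0.75 ± 0.31 and −0.74 ± 0.31, adjusted p = 0.28 and 0.228, with the block 6.44e-08 and 5.31e-08). DUSP1 was higher in LM2 than in Par (0.84 ± 0.31, adjusted p = 0.164, with the block 6.93e-13). Among developmental transcription factors, TFAP2C rose in LM2 against Par (log2 fold change 1.57 ± 0.34), NKX2-1 rose in BrM2 against Par (1.59 ± 0.44) and IRX5 fell in BrM2 against LM2. TFAP2C also lay above Par in BrM2 (0.95 ± 0.34, adjusted p = 0.103, with the block 1.07e-08). NKX2-1 also lay above Par in LM2 (0.84 ± 0.44, adjusted p = 0.615, with the block 0.0464). In BrM2 against LM2 neither was called without the block (adjusted p = 0.502 and 0.551, with the block 6.4e-05 and 0.0297). The TFAP2C call was lost in edgeR and without LM2 replicate 1 or Par replicate 1 (adjusted p up to 0.127), and that of NKX2-1 without BrM2 replicate 1, BrM2 replicate 2 or Par replicate 1 (up to 0.375). Of the ribosomal protein genes RPL22L1 rose in BrM2 against LM2 (1.07), a call lost in edgeR and without any 1 of the 6 libraries (up to 0.624). KDM6A, the X-linked H3K27 demethylase gene, had 1525 and 898 normalized counts (Par), 1609 and 884 (LM2) and 728 and 362 (BrM2). The difference from Par was −1.15 ± 0.42 (adjusted p = 0.13), and with the replicate block the adjusted p was 4.55e-25.

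Next, the lines were compared domain by domain to find which domains differ in H3K4me3. The test was DESeq2 with cell line as the only term and an adjusted p under 0.05 over all peaks. In LM2 against Par 29 domains were called, 21 higher and 8 lower, which is 2.07% of domains against a background of 2.51% of all peaks with an adjusted p (1.97% higher and 0.538% lower). In BrM2 against Par 40 were called, 31 higher and 9 lower (2.85%, background 3.61%, with 2.82% higher and 0.791% lower). In BrM2 against LM2 40 were called, 29 higher and 11 lower (2.85%, background 3.18%, with 2.05% higher and 1.13% lower). In this fit, which has no replicate block, the shares of domains thus stood near the background. In all, 69 domains were called in at least 1 comparison and 1334 in none. The comparisons with Par share its libraries. At an unadjusted p under 0.05 the counts were 78, 127 and 135 of 1403 domains. A share of about 0.05 would pass this level with no change at all, so these counts are not read as results.

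Same-numbered replicates deviated together, and adding that number to the fit as a block gave more calls: 346 in LM2 against Par (139 higher, 207 lower), 526 in BrM2 against Par (211 higher, 315 lower) and 577 in BrM2 against LM2 (257 higher, 320 lower). These are 24.7%, 37.5% and 41.1% of domains. The background was 14.4% of all peaks (8.90% higher, 5.49% lower), 17.7% (8.55% higher, 9.11% lower) and 22.0% (8.99% higher, 13.0% lower). With the block the shares of domains thus stood above the background. The median normalized count was 817 in domains and 128 over all peaks, and shares were not compared here at matched counts. All domains called without the block were also called with it. The direction of the calls turned: without the block 72.4%, 77.5% and 72.5% of called domains were higher in the first-named line, and with it 40.2%, 40.1% and 44.5%. With loess offsets added to the block the split turned again in both BrM2 comparisons, to 117 of 326, 297 of 456 and 375 of 517 calls higher, so the balance of directions rests on the normalization. In each line replicate 1 had more H3K4me3 in domains than replicate 2, by a median of 0.29 (Par), 0.34 (LM2) and 0.26 (BrM2) on the log2 scale, and less in peaks under 2 kb. Leaving out 1 library at a time, which assumes that the lone remaining sample varies like the other lines, left 12 to 26, 18 to 38 and 14 to 34 calls. The fewest in LM2 against Par came without LM2 replicate 1 (12), followed by Par replicate 2 (13), Par replicate 1 (16) and LM2 replicate 2 (18). In BrM2 against Par 18 calls were left without BrM2 replicate 2, 19 without Par replicate 1, 24 without BrM2 replicate 1 and 25 without Par replicate 2. In BrM2 against LM2 14 were left without BrM2 replicate 2 or LM2 replicate 1, and 23 without BrM2 replicate 1.

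**Figure D3:**
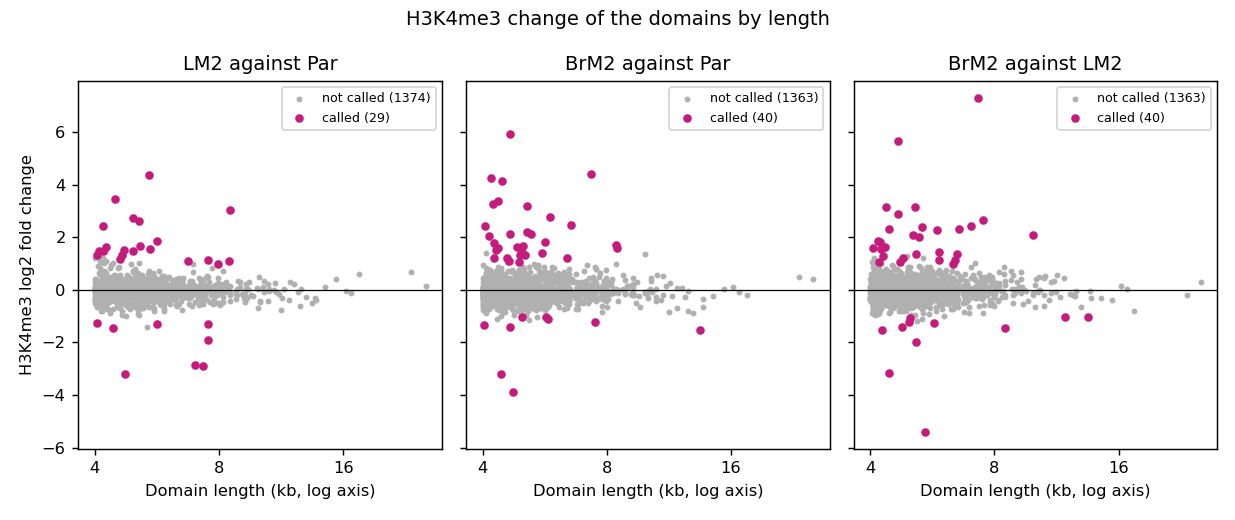
H3K4me3 log2 fold change (vertical axis) of each of the 1403 domains against its length in kb (log axis), for the 3 comparisons of lines. Grey points were not called and coloured points were called by DESeq2 without a block (29, 40 and 40 domains); called domains lay on both sides of 0.

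The share of in-peak reads that fell in domains differed by under 1 percentage point between lines. Par had 21.6% and 21.2%, LM2 21.1% and 20.6%, and BrM2 21.6% and 21.2%. BrM2 lay within the range of Par, and both LM2 values lay below it. In same-numbered replicates LM2 was below Par, with differences of −0.505 and −0.581 percentage points, and below BrM2 as well. The exact permutation test (two-sided, n = 2 per line) gave p = 0.333 for LM2 against Par, 1.0 for BrM2 against Par and 0.333 for BrM2 against LM2, where 0.333 is the smallest value this design allows, so that no difference could pass.

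Called domains were of lower signal than the rest. Their median normalized count was 410 in LM2 against Par and 267 in both other comparisons, against 820 to 826 for domains not called. A gene start lay in 19 of 29, 17 of 40 and 16 of 40 called domains, compared with 80.5% of all domains. Normalized counts of the lines did not overlap at any called domain. Over all domains, the lines did not overlap at 28.7%, 36.7% and 35.9%. The comparisons of LM2 and BrM2 with Par share the Par libraries, and 14 domains were called in the same direction in both (11 higher, 3 lower) and 1 in opposite directions.

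CSF3 encodes the granulocyte colony-stimulating factor, and its domain (chr17:38171036-38176452) overlaps the gene and its neighbour MED24. Normalized H3K4me3 counts there were 14.7 and 30.1 (Par), 419 and 562 (LM2) and 6.59 and 14.9 (BrM2). LM2 was high and both other lines were low. Raw reads numbered 275 and 1062 in LM2, 8 and 39 in Par and 5 and 24 in BrM2. The peak, called on merged reads, thus rests mainly on LM2. The difference was 4.38 ± 0.46 on the log2 scale in LM2 against Par (adjusted p = 3.03e-17) and −5.41 ± 0.49 in BrM2 against LM2 (adjusted p = 5.5e-24). H3K27ac moved the same way, from 299 and 512 normalized counts in Par to 1061 and 1129.6 in LM2 (log2 fold change 1.44 ± 0.29, adjusted p = 0.000173).

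SHH, the gene of the morphogen sonic hedgehog, lay in a domain at chr7:155600207-155605363. Its counts were 164 and 227 (Par), 634 and 605 (LM2) and 134 and 180.5 (BrM2). LM2 stood above both others, by 1.65 ± 0.35 against Par (adjusted p = 0.000306), while the change in BrM2 against LM2 was −1.97 ± 0.35 (adjusted p = 2.65e-06). Without Par replicate 1 the adjusted p of LM2 against Par was 0.0726. PAPPA encodes a protease that releases insulin-like growth factors from their binding proteins. It had 164 and 151 (Par), 1209 and 861 (LM2) and 492 and 403 (BrM2), so both metastatic lines exceeded Par. The log2 fold changes were 2.72 ± 0.34 in LM2 (adjusted p = 1.63e-12) and 1.51 ± 0.34 in BrM2 (adjusted p = 0.000715), and H3K27ac rose in both lines as well (2.45 ± 0.35 and 1.68 ± 0.36). The call in BrM2 against Par was lost without BrM2 replicate 1 or Par replicate 2 (adjusted p up to 0.0868). BrM2 was below LM2 by −1.21 ± 0.33 (adjusted p = 0.0107), a call lost in edgeR (adjusted p = 0.0554), with chromosome medians removed, and without BrM2 replicate 1, BrM2 replicate 2 or LM2 replicate 1 (up to 0.477).

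ADAMTS1, a secreted metalloprotease gene, was high in BrM2. Its domain (chr21:28213406-28219228) had 101 and 99.4 normalized counts (Par), 128 and 156 (LM2) and 820.0 and 566 (BrM2). BrM2 did not overlap either other line. The difference was 2.79 ± 0.36 against Par (adjusted p = 5.71e-12) and 2.28 ± 0.35 against LM2 (adjusted p = 2.41e-08). H3K27ac rose by 2.81 ± 0.54 against Par (adjusted p = 3.06e-05), from 13.9 and 13.0 to 103 and 84.8 normalized counts.

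LTBR, the lymphotoxin beta receptor gene, lay in a domain that also holds transcript starts of SCNN1A, a sodium channel subunit gene. It had 171 and 192 (Par), 10.7 and 26.5 (LM2) and 10.5 and 13.7 (BrM2). Both metastatic lines were low, by −3.19 ± 0.51 and −3.88 ± 0.53 (adjusted p = 1.73e-07 and 1.84e-10). Outside Par few raw reads lay behind the LTBR counts: 7 and 50 (LM2), 8 and 22 (BrM2), against 93 and 249 (Par). As peaks were called on merged reads, this domain rests mainly on Par. Part of the size of these changes and of their small adjusted p-values follows from that, so they are given as descriptions. H3K27ac there differed by −0.49 ± 0.28 and −0.79 ± 0.29, which did not pass (adjusted p = 0.502 and 0.0864). GPR39, a zinc-sensing receptor gene, had 49.6 and 147 (Par), 30.5 and 44.5 (LM2) and 165 and 232 (BrM2). It was 2.38 ± 0.51 higher in BrM2 than in LM2 (adjusted p = 0.000277), a call lost without BrM2 replicate 2 (adjusted p = 0.13).

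FSCN1 rose in both metastatic lines. It encodes fascin, which bundles actin in cell protrusions. The domain (chr7:5631016-5636686) had 139.6 and 162 (Par), 613 and 491 (LM2) and 571 and 486 (BrM2). Both lines were above Par and overlapped each other. LM2 exceeded Par by 1.86 ± 0.33 (adjusted p = 7.2e-06) and BrM2 did so by 1.80 ± 0.33 (adjusted p = 1.06e-05). H3K27ac was 317 and 321 (Par), 351 and 317 (LM2) and 359 and 384 (BrM2), differences of 0.07 ± 0.26 and 0.22 ± 0.26 that did not pass. PRAG1, a pseudokinase gene, had 873 and 741 (Par), 843 and 724 (LM2) and 94.9 and 79.0 (BrM2). BrM2 alone was low, by −3.22 ± 0.33 against Par (adjusted p = 6.11e-19), and H3K27ac fell there by −3.55 ± 0.54 (adjusted p = 2.23e-08). PRAG1 lies on chromosome 8, where 3 domains were called in BrM2 against LM2 and 2 in BrM2 against Par, all of them lower. These domains lay between positions 8240744 and 12991530. A change of that part of the chromosome was not tested. ANKRD1, a gene of a muscle ankyrin repeat protein, had 193 and 238 (Par), 45.7 and 106 (LM2) and 414 and 364 (BrM2). BrM2 exceeded LM2 by 2.32 ± 0.41 (adjusted p = 3.9e-06). The lower value in LM2 than in Par (−1.47 ± 0.42, adjusted p = 0.0221) was lost in edgeR and without any 1 of 5 libraries (both of BrM2, both of Par and LM2 replicate 1; adjusted p up to 0.595).

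BCL11A, a zinc finger repressor gene, had 551 and 471 (Par), 1174 and 1023 (LM2) and 1823 and 1494 (BrM2). The lines were ordered without overlap, with 1.70 ± 0.31 in BrM2 against Par (adjusted p = 5.28e-06) and 1.11 ± 0.31 in LM2 against Par (adjusted p = 0.0181). The call in LM2 was lost in edgeR (adjusted p = 0.178) and without either library of LM2 or of Par (up to 0.533). BrM2 against LM2 was not called without the block (0.59 ± 0.30, adjusted p = 0.461, with the block 4.63e-08). H3K27ac rose in BrM2 against Par by 2.45 ± 0.37 (adjusted p = 1.38e-08). In LM2 against Par it differed by 0.61 ± 0.37, which did not pass (adjusted p = 0.56). IRX5, a homeobox gene, had 1426 and 1196 (Par), 1831 and 1426 (LM2) and 788 and 819.7 (BrM2). It was −1.02 ± 0.31 lower in BrM2 than in LM2 (adjusted p = 0.0321). The call was lost in edgeR and when any 1 of the 6 libraries was left out (adjusted p up to 0.606). ZMYND8, a chromatin reader gene, had 99.2 and 229.7 (Par), 62.5 and 138 (LM2) and 347 and 513 (BrM2), a difference of 2.08 ± 0.47 between BrM2 and LM2 (adjusted p = 0.000843), lost without BrM2 replicate 2 or LM2 replicate 1 (up to 0.197). H3K27ac at ZMYND8 differed by −0.03 ± 0.28. INSYN2B, whose domain lies within DOCK2, had 57.0 and 78.6 in Par and 259.7 and 314 in BrM2 (2.06 ± 0.43, adjusted p = 0.000171; 0.0535 without BrM2 replicate 2). The coding gene ENSG00000265118, in the NF1 locus, had 44.2 and 70.9 in LM2 and 191 and 177 in BrM2 (1.65 ± 0.41, adjusted p = 0.00399), a call lost without BrM2 replicate 1, BrM2 replicate 2 or LM2 replicate 1 (up to 0.191).

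**Figure D4:**
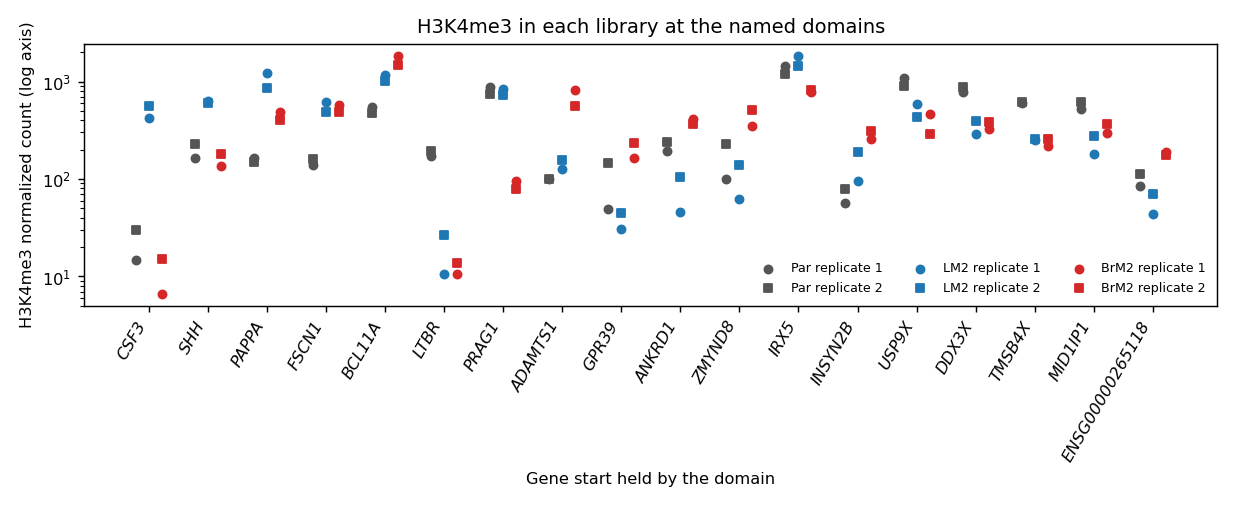
Normalized H3K4me3 count (log axis) in each of the 6 libraries at named domains, by the gene start they hold. Circles are replicate 1, squares replicate 2 and colours the lines; CSF3 was high in LM2 (419 and 562) and PRAG1 low in BrM2 (94.9 and 79.0).

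Several lower domains lay on chromosome X. TMSB4X, the gene of the actin-binding peptide thymosin beta 4, had 604 and 612 (Par), 250.1 and 259 (LM2) and 218 and 258 (BrM2). DDX3X, an RNA helicase gene, had 781 and 885 (Par), 287 and 395 (LM2) and 326 and 380.3 (BrM2). Both were lower in LM2 (−1.25 ± 0.32 and −1.28 ± 0.33) and in BrM2 (−1.35 ± 0.32 and −1.24 ± 0.33), with H3K27ac lower as well in both lines. USP9X, a deubiquitinase gene, fell in BrM2 (−1.40 ± 0.35, adjusted p = 0.00372) and MID1IP1, a gene that regulates lipid synthesis, in LM2 (−1.30 ± 0.35, adjusted p = 0.0132). Each of these 6 calls was lost without 1 or another library, Par replicate 1 and Par replicate 2 in every case, with adjusted p up to 0.48, and that of DDX3X in LM2 was also lost in edgeR (0.0552). USP9X also lay below Par in LM2 (−0.96 ± 0.35, adjusted p = 0.153, with the block 9.23e-12). MID1IP1 also lay below Par in BrM2 (−0.76 ± 0.35, adjusted p = 0.337, with the block 4.01e-05). In BrM2 against LM2 neither was called without the block (adjusted p = 0.816 and 0.681, with the block 0.00664 and 0.00885). Of the called lower domains 3 of 8 in LM2 against Par and 6 of 9 in BrM2 against Par were on chromosome X, which holds 30 domains. The median change of those 30 was −0.23 in LM2 and −0.30 in BrM2, and that of the other peaks on X was −0.19 and −0.22. Shifts of this size were not particular to X. The median change of domains in LM2 and BrM2 was −0.27 and −0.32 on chromosome 7. On chromosome 9 it was 0.10 and −0.41, and on chromosome 13 it was 0.36 and −0.12. With the median change of each chromosome removed, all 6 calls still passed (adjusted p up to 0.0436). This setting takes 1 value per chromosome, so it cannot remove a change of only part of a chromosome. The called lower domains on X all lay between positions 12992586 and 47055861, while domains on X reached from 9431266 to 153603785. A change of that part was not tested.

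Domains without a protein-coding transcript start held the largest changes in both comparisons that involve BrM2. These lie outside the rule for named genes and were chosen after their values were seen. Peaks were called on reads merged over lines, so a place with few reads elsewhere became a peak mainly through the line where it is high. Large changes and small adjusted p-values at such places follow partly from this and are descriptions here. A domain on chromosome 3 (chr3:104157424-104164743, 7320 bp), 921010 bp from the nearest gene start (ALCAM), had 47.8 and 23.1 normalized counts (Par), 1.52 and 5.82 (LM2) and 651 and 764 (BrM2). In LM2 these rest on 1 and 11 reads. BrM2 stood far above both other lines, by 4.39 ± 0.43 against Par (adjusted p = 2.8e-20) and 7.31 ± 0.59 against LM2 (adjusted p = 4.71e-31). H3K27ac rose there by 3.77 ± 0.37 against Par (adjusted p = 1.23e-20). LM2 was below Par by −2.91 ± 0.62 (adjusted p = 0.00039), a call lost without LM2 replicate 2 (adjusted p = 0.18).

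A domain on chromosome 4 (chr4:183735655-183740321), 98768 bp from DCTD, had 3.67 and 6.17 (Par), 4.57 and 7.41 (LM2) and 291 and 362 (BrM2). In Par 2 and 8 reads lay behind these values. The change in BrM2 was 5.94 ± 0.62 against Par (adjusted p = 1.37e-18). An H3K27ac peak that covers 43.4% of the domain rose from 6.97 and 7.01 to 201 and 191 (4.81 ± 0.50, adjusted p = 4.06e-18). Another domain on chromosome 3 (chr3:98270623-98274982), near GPR15, had 20.2 and 35.4 (Par), 19.8 and 45.0 (LM2) and 308 and 301 (BrM2) (3.40 ± 0.47 against Par, adjusted p = 3.52e-10). H3K27ac there was already 529.7 and 569 in Par and differed by 0.18 ± 0.26. On chromosome 11 a domain at a noncoding gene (chr11:7924852-7929038) had 12.9 and 13.9 (Par), 47.3 and 92.6 (LM2) and 247 and 274 (BrM2), with changes of 2.41 ± 0.52 and 4.27 ± 0.51 against Par. The call in LM2 was lost without LM2 replicate 2 or Par replicate 2 (adjusted p up to 0.21). At LINC00355 on chromosome 13 (chr13:64649035-64654161) the values were 9.19 and 28.5 (Par), 97.6 and 150.3 (LM2) and 191 and 179 (BrM2) (2.61 ± 0.50 and 3.17 ± 0.50).

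H3K27ac, which the rule did not use, was then compared in H3K27ac peaks that share bases with the domains and can be longer or shorter. Of 62195 H3K27ac peaks 1530 shared a base with a domain. Called peaks among them numbered 26 in LM2 against Par (15 higher, 11 lower), 55 in BrM2 against Par (24 higher, 31 lower) and 31 in BrM2 against LM2 (19 higher, 12 lower). These are 1.73%, 3.64% and 2.07% of those with an adjusted p, against backgrounds of 3.63% (2.72% higher, 0.907% lower), 5.29% (3.62% higher, 1.67% lower) and 2.94% (1.71% higher, 1.22% lower) of all H3K27ac peaks. Leaving out 1 library at a time gave 6 to 18, 12 to 38 and 3 to 25 calls, with the fewest without LM2 replicate 1, BrM2 replicate 1 and BrM2 replicate 1. With the replicate block the counts were 78 (23 higher, 55 lower), 140 (60 higher, 80 lower) and 133 (86 higher, 47 lower). The backgrounds were then 5.44% (3.60% higher, 1.84% lower), 8.13% (5.14% higher, 2.99% lower) and 6.17% (3.65% higher, 2.52% lower). Of the called H3K4me3 domains with an H3K27ac peak, the H3K27ac log2 fold change had the same sign in 26 of 28, 34 of 38 and 37 of 40, and was itself called in 12, 18 and 13. Over the 1400 domains with H3K27ac the signs matched in 64.5%, 76.0% and 72.0%. Called domains had absolute H3K4me3 log2 fold changes of at least 0.979, 1.04 and 0.972, so the called set and all 1400 differ in size of change. Their shares of matching signs are therefore descriptions. The log2 fold changes of the marks had a Pearson r of 0.632, 0.724 and 0.706, a description over domains that share libraries and cells.

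**Figure D5:**
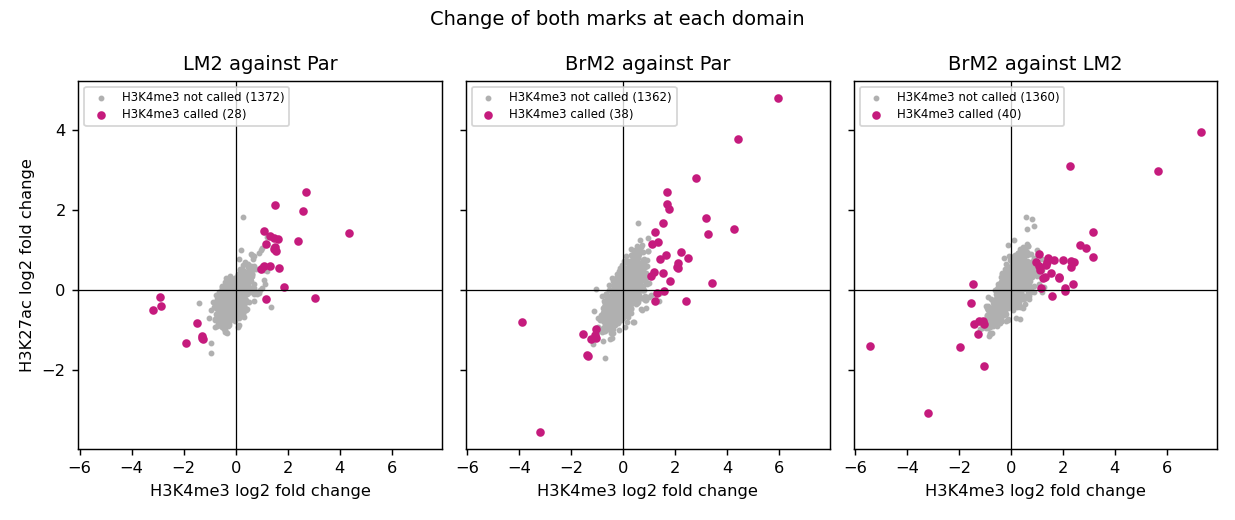
H3K27ac log2 fold change (vertical axis) against H3K4me3 log2 fold change (horizontal axis) at the 1400 domains with an H3K27ac peak, for the 3 comparisons of lines. Coloured points were called for H3K4me3, and 26 of 28, 34 of 38 and 37 of 40 of them had the same sign in both marks. Of all 1400 domains, most of which were not called, 64.5%, 76.0% and 72.0% did. The called set holds only larger H3K4me3 changes, so these shares are descriptions.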

How the data were processed

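H3K4me3 and H3K27ac ChIP-seq of 3 cell lines gave 12 libraries. The 3 input samples were not used here. Per the paper's methods and file headers, reads were aligned to hg19 and broad peaks were called on the merged reads of a mark. The submitters' processing notes name Bowtie2 2.3.4.3, Picard 2.18.21, MACS2 2.1.2 and HOMER 4.10. The deposited values are raw read counts per peak, which the authors made with featureCounts 1.6.0 after extending reads by 150 bases. Peaks called on merged reads give no length per line.

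Counts were tested with DESeq2 1.42.0 in R 4.3.3, with all 6 libraries of a mark in 1 fit and cell line as the term (3 residual degrees of freedom, 2 with the block). Adjusted p-values are Benjamini-Hochberg values over all peaks and calls had a value under 0.05. DESeq2's default target of independent filtering (0.1) was adopted after counts under 0.05 had been seen, and 0.05 was kept as an alternative. Fold changes are first-named against second-named line. Gene starts are those of GENCODE 44 lifted to GRCh37. For each comparison the named genes are the 5 largest and 5 smallest changes among called domains that hold a gene start and do not overlap between lines; in addition the 10 longest domains and up to 4 list members with the longest domains are named, with further list members named after their values were seen. A domain that this rule names is not reported here. Members and lists were chosen with earlier results of these data known.

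Replicate numbers in the titles paired the samples. Same-numbered libraries deviated together in H3K4me3 (r = 0.842, 0.788 and 0.825 for Par with LM2, Par with BrM2 and LM2 with BrM2) and in H3K27ac (0.407, 0.607 and 0.480). The tests were checked on simulated counts. Alternatives were a replicate block, edgeR 4.0.16, loess offsets, chromosome medians removed, a count minimum of 10, and leaving out each library.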

Additional observations from a re-analysis of the deposited data

Results flagged for a closer look

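At 16 described domains the change from Par differed between LM2 and BrM2, by the test of BrM2 against LM2 in DESeq2 (adjusted p under 0.05 over all peaks). Both changes share the Par libraries. Peaks were called on merged reads, so a domain with few reads elsewhere rests mainly on the line where it is high. The difference in H3K4me3, as BrM2 minus LM2 on the log2 scale, was negative at CSF3 (−5.41), PRAG1 (−3.18), SHH (−1.97), PAPPA (−1.21), MIR222HG (−1.02) and IRX5 (−1.02). It was positive at RPL22L1 (1.07), ENSG00000265118 (1.65), ZMYND8 (2.08), ADAMTS1 (2.28), ANKRD1 (2.32) and GPR39 (2.38). Among domains with no protein-coding transcript start it was 1.86 at chr11:7924852-7929038, 3.16 at chr3:98270623-98274982, 5.66 at chr4:183735655-183740321 and 7.31 at chr3:104157424-104164743. The chromosome 11 call was lost without BrM2 replicate 1, BrM2 replicate 2 or LM2 replicate 1, with a log2 fold change from 1.49 to 2.47 over the alternatives. The calls at IRX5, RPL22L1 and MIR222HG were lost in edgeR and without any 1 of the 6 libraries. Those at PAPPA, ENSG00000265118, ZMYND8 and GPR39 were also lost under at least 1 alternative.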

How the results depend on the processing

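Counts are given for LM2 against Par, BrM2 against Par and BrM2 against LM2, in that order. Called H3K4me3 domains numbered 29, 40 and 40, and 346, 526 and 577 with the replicate block, 577, 763 and 812 in edgeR with the block, 52, 76 and 82 with loess offsets, 326, 456 and 517 with loess offsets and the block, and 277, 473 and 507 with chromosome medians removed and the block. With loess offsets and the block, 117, 297 and 375 of the calls were higher. Of all H3K4me3 peaks 2.51%, 3.61% and 3.18% were called in the main fit and 14.4%, 17.7% and 22.0% with the block. For the other settings of either mark the share of all peaks is not given here, so their counts are not read as particular to domains. In edgeR without the block 17 were called in LM2 against Par. Called H3K27ac peaks in domains numbered 26, 55 and 31, and 78, 140 and 133 with the block, 230, 344 and 311 in edgeR with the block, 62, 141 and 112 with loess offsets and the block, and 53, 119 and 76 with chromosome medians removed and the block. In edgeR without the block they were 84 in BrM2 against Par and 54 in BrM2 against LM2. Without 1 library at a time the H3K4me3 counts ranged from 12 to 26, 18 to 38 and 14 to 34, and the H3K27ac counts from 6 to 18, 12 to 38 and 3 to 25. The share of reads in domains ranged from 21.2% to 21.6% in Par, 20.6% to 21.1% in LM2 and 21.2% to 21.6% in BrM2. At a minimum length of 5000 bp it was 11.2%, 10.9% and 11.2% in Par, LM2 and BrM2, and with a count minimum of 10 it was 21.8% in BrM2. No single described domain that was called changed sign under the alternatives run, whereas the split of all calls into higher and lower turned with the block and again with loess offsets and the block. The loess and chromosome settings with the block were chosen after seeing the data. The cause of these differences was not tested. The block changed calls as these counts show, and all domains called without it stayed called with it. Depth limits low domains, such as that on chromosome 3 in LM2 with 1 and 11 reads.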
